A study of Mus musculus with 15 samples.

Results

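The nuclear genes for the subunits of oxidative phosphorylation were followed in a series that profiled H3K4me3, trimethylated lysine 4 of histone H3, in mouse liver. Members were the protein-coding genes of GENCODE (release M21, mm10) whose symbols begin with Ndufa, Ndufb, Ndufc, Ndufs, Ndufv, Uqcr, Cox4, Cox5, Cox6, Cox7, Cox8 or Atp5, without the Ndufaf assembly factors, together with Sdha, Sdhb, Sdhc and Sdhd. The rule gave 86 of 21755 protein-coding genes on chromosomes 1 to 19 and X, of which 38 belong by name to complex I, 4 to complex II, 8 to complex III, 18 to complex IV and 18 to complex V. The 15 libraries came from 15 C57BL/6 females (C57BL/6J in the study's methods), 1 library per mouse and 3 mice on each of 5 diets, named here by diet and replicate number (SD_1 to RD_3). SD was the standard diet ad libitum, CR a calorie restricted diet, HF a high-fat diet ad libitum, RD a diet with anthocyanin-rich purple corn and YD a diet with near-isogenic yellow corn that lacks anthocyanins. All mice carried the same strain background with no engineered allele, started their diet at 3 months and were fed for 10 months, while the labels give an age of 12 months. Whole liver was used, so that a change in the mark within a cell and a change in the mix of cells cannot be told apart.

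Oxidative phosphorylation is the last stage of respiration in the mitochondrion. Complexes I and II pass electrons from NADH and succinate to ubiquinone, complex III passes them on to cytochrome c, and complex IV gives them to oxygen. The proton gradient built by complexes I, III and IV drives complex V, the ATP synthase. A few subunits are made from mitochondrial DNA, and all the others come from nuclear genes such as these, many of which hepatocytes use constantly. H3K4me3 sits around the transcription start sites (TSSs) of genes with active or poised promoters. Several subunits of complex IV have paired genes, with one form used in most tissues and another kept for muscle, lung or testis.

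The deposited data are SICER2 islands, runs of windows of 200 bp with more reads than the library's background, each with a score that is higher for a stronger and wider enrichment. A gene was called marked in a mouse when an island lay within 1 kb of any of its TSSs, and the best-scoring such island stood for the gene. Scores are not on 1 scale between libraries, so each was turned into a percentile within its own list, where 100 is the highest-scoring island of that mouse. The lists held 7825 to 33752 islands, and the reads recovered from the score steps numbered 5589269 to 15449854 per library. The YD lists were the shortest on average (7825 to 10906 islands). Of 15 hepatocyte genes, 10 to 15 were marked in each mouse, although Alb had an island in only 8 of 15 libraries. None of 10 muscle and neuron genes was marked in any mouse.

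The members fell into a marked class and an unmarked class, with none between them. Of the 86 genes, 77 were marked in at least 8 of the 15 mice and 9 in none, and 0 were marked in 1 to 7 mice. Among all protein-coding genes, 40.0% were marked in no mouse, 19.9% in 1 to 7 and 9.46% in all 15, against 40.7% of the members (35 genes) in all 15. Of the remaining 42 marked members, 26 were marked in 13 or 14 mice, 15 in 10 to 12 and 1, Ndufab1, in 8. Ndufab1 encodes the mitochondrial acyl carrier protein, which also serves fatty acid and lipoic acid synthesis. In the heatmap of the members, the unmarked genes form 1 solid grey block within complex IV and single grey rows in complexes I and V.

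**Figure D1:**
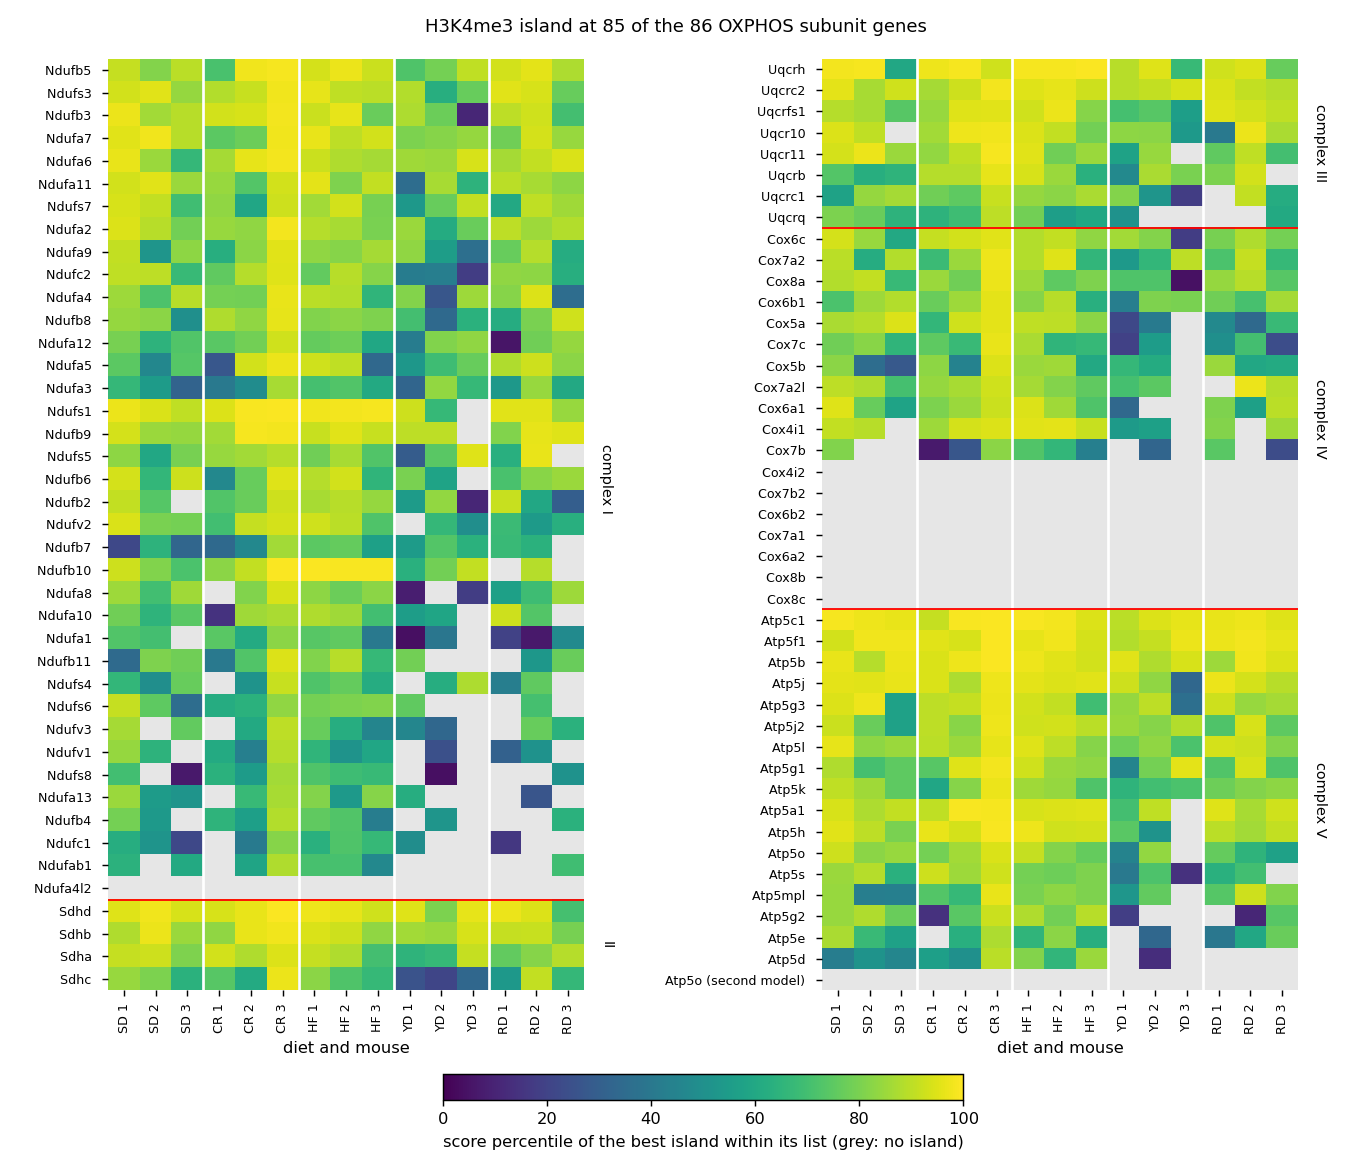
Score percentile of the best H3K4me3 island within 1 kb of a TSS for 85 of the 86 genes (rows, grouped by complex and ordered by the number of mice marked) in each of the 15 mice (columns, by diet). Grey cells have no island, as in all 15 mice for 9 genes, and 30 marked genes are grey in YD 3.

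Of the 9 unmarked genes, 8 were the forms of a subunit that other tissues use. Cox6a2, Cox7a1 and Cox8b encode the heart and skeletal muscle forms of complex IV subunits, Cox6b2, Cox7b2 and Cox8c the testis forms, and Cox4i2 a form known from lung. Ndufa4l2 is a relative of Ndufa4 known for its induction by low oxygen. The ninth was a second GENCODE model that also carries the name Atp5o, with a single TSS inside the Atp5o gene. The nearest island to these genes lay at a median over the mice of 5555 bp for Cox8b, 6234 bp for Ndufa4l2, 9807 bp for Cox7a1, 11128 bp for Cox6b2, 15773 bp for Cox4i2, 21516 bp for Cox8c, 30614 bp for Cox6a2 and 155605 bp for Cox7b2. When islands within 3 kb were allowed, Ndufa4l2 and the second Atp5o model gained an island in 1 mouse each and the other 7 remained unmarked. Cyct, the testis cytochrome c, was marked in 0 of 15 mice, while the somatic form Cycs was marked in 14.

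The forms that liver uses were all marked. Cox6b1, Cox7a2, Cox8a and Ndufa4 had an island in 15 of 15 mice, Cox6a1 in 13, Cox4i1 in 12 and Cox7b in 10. Ndufa4 is named for complex I but its protein has since been assigned to complex IV. Cox7b, the most weakly marked of the 7 by median percentile (54.6 over the 10 mice with an island), lacked an island in SD_2, SD_3, YD_1, YD_3 and RD_2. The 3 genes for the c subunit of the ATP synthase ring encode the same mature protein behind different targeting sequences. Of these, Atp5g1 and Atp5g3 were marked in all 15 mice and Atp5g2 in 12.

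Promoter sequences were compared because the marked and unmarked forms have closely related products and opposite marking. RefSeq promoters (GRCm38.p6, 250 bases before to 50 after a start) were matched to 69 of the 86 members, 65 of them marked and 4 unmarked. Shown here 5′ to 3′ are the 3 matched genes with the highest median percentile among those marked in all 15 mice, followed by the 4 unmarked genes with a sequence. Capitals mark each CG dinucleotide, the site of DNA methylation, which is dense in the CpG islands that usually carry H3K4me3.
Atp5c1, chr2:10080461-10080760, minus strand: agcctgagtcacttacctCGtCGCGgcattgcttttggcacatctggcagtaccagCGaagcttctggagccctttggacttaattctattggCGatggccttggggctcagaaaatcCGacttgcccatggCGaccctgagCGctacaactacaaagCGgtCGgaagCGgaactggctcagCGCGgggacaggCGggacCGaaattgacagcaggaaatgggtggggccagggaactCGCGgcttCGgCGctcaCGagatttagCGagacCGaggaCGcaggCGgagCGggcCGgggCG
Atp5f1, chr3:105959214-105959513, minus strand: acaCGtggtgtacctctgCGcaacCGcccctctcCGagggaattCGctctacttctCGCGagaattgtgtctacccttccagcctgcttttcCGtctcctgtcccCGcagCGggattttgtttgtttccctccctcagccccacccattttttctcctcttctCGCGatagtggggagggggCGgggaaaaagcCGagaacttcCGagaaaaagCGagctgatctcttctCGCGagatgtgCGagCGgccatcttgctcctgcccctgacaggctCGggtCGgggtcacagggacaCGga
Atp5b, chr10:128083057-128083356, plus strand: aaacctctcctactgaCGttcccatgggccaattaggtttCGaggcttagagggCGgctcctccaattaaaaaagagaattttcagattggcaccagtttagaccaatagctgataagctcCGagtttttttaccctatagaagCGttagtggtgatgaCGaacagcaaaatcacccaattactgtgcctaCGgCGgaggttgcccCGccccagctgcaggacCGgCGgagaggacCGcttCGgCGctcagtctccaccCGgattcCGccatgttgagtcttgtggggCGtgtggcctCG
Cox6b2, chr7:4753045-4753344, minus strand: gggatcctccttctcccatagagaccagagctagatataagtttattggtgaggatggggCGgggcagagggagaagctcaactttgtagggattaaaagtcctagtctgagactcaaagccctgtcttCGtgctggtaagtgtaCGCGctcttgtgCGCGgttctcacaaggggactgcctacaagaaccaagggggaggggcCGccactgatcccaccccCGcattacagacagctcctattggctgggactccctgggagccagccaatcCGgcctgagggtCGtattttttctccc
Cox7a1, chr7:30183921-30184220, plus strand: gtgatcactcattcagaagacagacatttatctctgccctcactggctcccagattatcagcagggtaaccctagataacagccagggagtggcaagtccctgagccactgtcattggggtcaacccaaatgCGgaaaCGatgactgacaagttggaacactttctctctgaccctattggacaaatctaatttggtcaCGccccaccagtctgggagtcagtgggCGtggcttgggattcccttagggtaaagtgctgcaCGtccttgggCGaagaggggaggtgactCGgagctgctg
Cox7b2, chr5:71548156-71548455, minus strand: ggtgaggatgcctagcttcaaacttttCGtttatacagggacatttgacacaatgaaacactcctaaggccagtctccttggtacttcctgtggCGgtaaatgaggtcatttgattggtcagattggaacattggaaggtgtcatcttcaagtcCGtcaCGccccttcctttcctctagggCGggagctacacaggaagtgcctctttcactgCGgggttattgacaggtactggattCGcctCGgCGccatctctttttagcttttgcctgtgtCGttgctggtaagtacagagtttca
Cox8b, chr7:140900397-140900696, minus strand: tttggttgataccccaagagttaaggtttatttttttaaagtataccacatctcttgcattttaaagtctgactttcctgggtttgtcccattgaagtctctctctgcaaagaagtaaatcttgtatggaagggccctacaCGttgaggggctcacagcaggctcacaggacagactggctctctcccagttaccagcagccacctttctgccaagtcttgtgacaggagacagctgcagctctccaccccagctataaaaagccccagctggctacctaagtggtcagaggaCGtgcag

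The windows of Atp5c1, Atp5f1 and Atp5b held 27, 23 and 18 CG dinucleotides, and those of Cox6b2, Cox7a1, Cox7b2 and Cox8b held 10, 7, 10 and 2. Over the 65 marked members the median was 20 CG (range 5 to 43), beside 8.5 over the 4 unmarked ones and 14 over the promoters of 17273 protein-coding genes. The observed number of CG over that expected from the base composition had a median of 0.828 in the marked members, 0.382 in the unmarked and 0.585 in all coding genes. The classes overlapped in this ratio, since 6 marked members lay within the unmarked range of 0.115 to 0.564. These were Cox7b (0.368, an island in 10 mice), Ndufc2 (0.482, 15 mice), Ndufb2 (0.520, 14), Ndufb7 (0.521, 14), Ndufs8 (0.532, 10) and Ndufa3 (0.558, 15). In CG number, Cox7b with 5 and Ndufc2 with 8 were the marked members at or under the 10 of Cox6b2 and Cox7b2. Between paired forms, the marked Cox6b1, Cox7a2 and Cox8a held 17, 20 and 19 CG. Their unmarked partners Cox6b2, Cox7a1 and Cox8b held 10, 7 and 2. The pair of Cox7b and Cox7b2 ran the other way, with 5 CG in the marked form and 10 in the unmarked (ratios 0.368 and 0.564). With 4 unmarked promoters this is a description and was not tested.

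**Figure D2:**
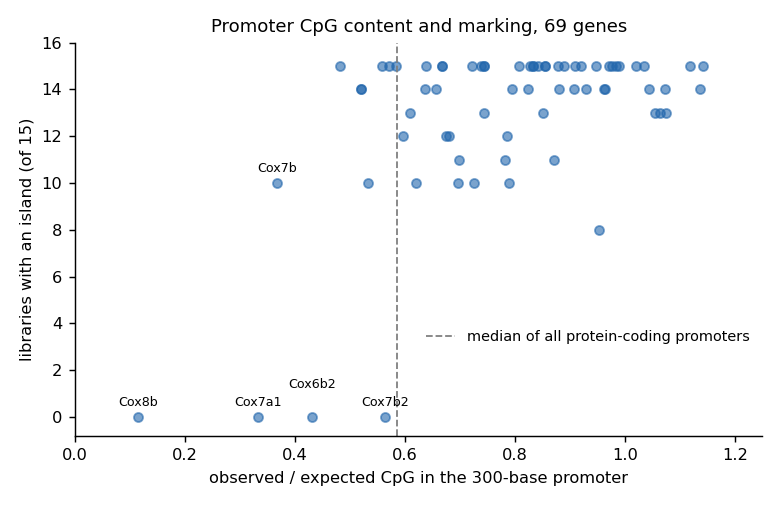
Observed over expected CG dinucleotides in the RefSeq promoter of 300 bases (horizontal) against the number of mice with an island (vertical, of 15) for the 69 members with a sequence, 1 point per gene, with the median of all protein-coding promoters as a dashed line. The 4 unmarked genes lie between 0.115 and 0.564, left of that line, and the marked genes Cox7b, Ndufc2, Ndufb2, Ndufb7, Ndufs8 and Ndufa3, at 0.368 to 0.558, lie in the same range.

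Motifs of factors known to drive respiratory genes were searched on both strands of the same windows. The core letters of the NRF1 motif (GCGCATG) were found in 13 of 65 marked members, or 20%, and in 4.93% of the 17273 coding promoters. YY1 letters (AAGATGGC) were found in 9 marked members, or 13.8%, and in 3.25% of all, and ETS or GABP letters (CCGGAAG) in 15, or 23.1%, and in 12.0% of all. SP1 letters (GGGCGG) were in 41.5% of marked members and 46.9% of all, and TATA letters (TATAAA) in 7.69% and 13.4%. None of the 5 contains another. Among the 4 unmarked promoters, the letters of SP1 were in Cox6b2 and Cox7b2, those of TATA in Cox7b2 and Cox8b, and those of NRF1, YY1 and ETS in 0.

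Among the 35 genes marked in every mouse, the 3 with the highest median percentile encode subunits of the ATP synthase. Atp5c1, which encodes the gamma subunit of the rotating central stalk, had percentiles of 98.6, 97.6 and 96.6 in the SD mice, 91.2, 98.9 and 99.5 in CR, 99.1, 98.4 and 94.7 in HF, 89.8, 94.9 and 96.5 in YD, and 96.5, 97.5 and 95.03 in RD. Atp5f1, the b subunit of the peripheral stalk, ranged from 88.6 in YD_1 to 99.2 in CR_3 with a median of 96.5. Atp5b, the catalytic beta subunit, ranged from 85.3 in RD_1 to 99.3 in CR_3 with a median of 95.4. In all 15 mice these 3 islands ranked in the top 15% of their lists. Next were Sdhd, a membrane anchor of complex II (median 95.3, lowest 70.6), and Uqcrh, the hinge protein of complex III (median 95.1, lowest 59.95).

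At the other end of these 35 genes were Ndufa3 (median percentile 60.7), Sdhc (67.02), Ndufa5 (76.9), Ndufa12 (77.9) and Cox6b1 (80.7). Ndufa3, an accessory subunit of complex I, ranged from 31.7 in SD_3 to 87.1 in CR_3. Percentiles of Ndufa12, another accessory subunit, ran from 5.73 in RD_1 to 92.8 in CR_3. Values of 1 gene thus spread widely within a diet, and CR_3 held the highest value for each of Ndufa3, Sdhc, Ndufa5, Ndufa12 and Cox6b1. CR_3 had the longest list and the highest median percentile over all marked coding genes. The percentiles given for single genes, and those in the main fit, were not adjusted for that median. The median over the marked members was above that of all marked coding genes in each of the 15 libraries, from 66.0 against 60.7 in YD_1 to 95.4 against 84.5 in CR_3.

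The complexes differed in how completely they were marked. All 4 genes of complex II, succinate dehydrogenase, which also serves the citric acid cycle, were marked in all 15 mice. Of complex V, 9 of 18 were marked in every mouse, of complex I 15 of 38, of complex IV 4 of 18 and of complex III 3 of 8. Taking only the marked genes, an island was present in 89.0% of gene and mouse pairs for complex I, 90.9% for IV, 93.3% for III and 93.7% for V. The genes of 1 complex share libraries and are not replicates, and these shares were not tested.

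Of the 5 widest islands among the same 35 genes, 3 belonged to the ATP synthase. By median width over the 15 mice, Atp5c1 came first with 3800 bp (1400 to 6000), followed by Uqcrh and Atp5j with 3600 bp each, and Atp5b and Ndufa4 with 3200 bp each. The widest island of any member was at Ndufb10, an accessory subunit of complex I, with 6400, 5600 and 7200 bp in the HF mice. At the same gene the SD mice had 2600, 1600 and 3400 bp, and RD_1 and RD_3 had no island. In 7 mice the Ndufb10 island also covered the TSS of a neighbouring coding gene, either Rps2 or Rnf151.

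Many members share their promoter region. Another protein-coding gene had a TSS within 1 kb for 35 of the 86 genes, and 34 of these 35 were marked. For 33 members the island covered such a TSS in at least 1 mouse, among them Atp5c1 with Kin in 15 mice, Atp5f1 with Wdr77 in 15, Sdhd with Timm8b in 14 and Atp5j with Gabpa in 13. The median width was 2400 bp with such a neighbour and 1800 bp without. An island over both starts cannot be given to either gene.

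The islands lay mostly downstream of the TSS, inside the gene. At the first principal transcript of each of the 77 marked members, islands reached a median of 626 ± 146 bp upstream and 1351 ± 91.7 bp downstream in the SD mice (SD, n = 3). In HF they reached 769 ± 239 bp upstream and 1726 ± 198 bp downstream, and in YD 327 ± 382 and 1176 ± 301 bp. The YD mice varied most, with 763 bp upstream in YD_1, 166 in YD_2 and 51 in YD_3. Coverage was highest 300 to 600 bp into the gene with every diet, at 97.4% of the 77 genes in HF, 94.4% in CR, 92.6% in SD, 81.4% in RD and 74.5% in YD. In YD_3 alone the highest coverage was 55.8%.

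**Figure D3:**
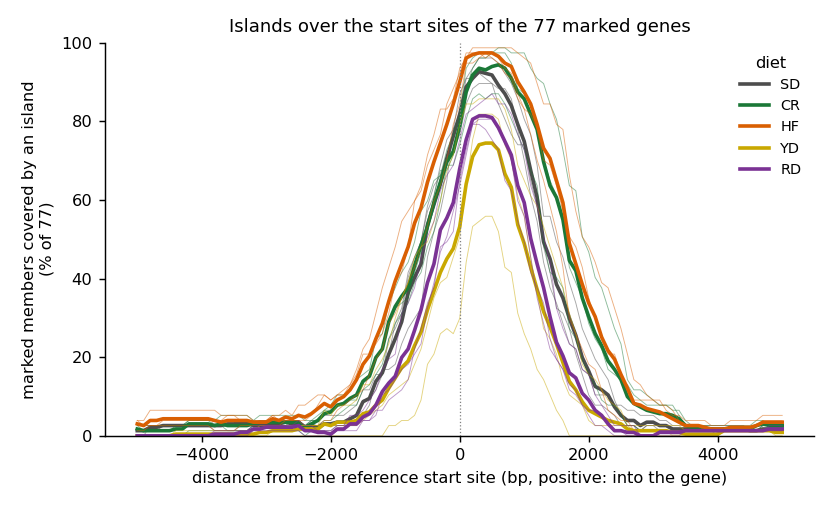
Share of the 77 marked genes covered by an island (vertical, %) at each distance from the reference TSS (horizontal, bp, positive into the gene), with thin lines for the 15 mice and thick lines for the mean of 3 mice of each diet. All diets peak 300 to 600 bp into the gene, HF is highest at 97.4% and YD lowest at 74.5%, with YD_3 as the lowest thin line.

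Between diets, the mean number of marked members was highest in HF and lowest in YD, but lowest in RD (54.7 against 57.3 in YD) when the same number of top islands was taken from every list. The SD mice had 77, 73 and 70 marked members, the CR mice 70, 77 and 77, and the HF mice 77, 77 and 77. The YD mice had 68, 67 and 47, and the RD mice 64, 69 and 65. The RD values did not overlap those of SD, CR or HF, and of the YD values only the 47 of YD_3 lay below the whole RD range. Over all protein-coding genes the marked shares of RD and SD did overlap, with 34.7% in RD_2 and 32.7% in SD_3. The RD shares there lay below those of CR and HF, and every YD share lay below the 27.8% of RD_3.

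Means were 77 ± 0 in HF, 74.7 ± 4.04 in CR, 73.3 ± 3.51 in SD, 66 ± 2.65 in RD and 60.7 ± 11.8 in YD (SD, n = 3), and 67.5 in YD without YD_3. Over all protein-coding genes the marked share followed the same order, with 51.2% ± 3.53 for HF, 43.4% ± 6.92 for CR, 39.6% ± 5.98 for SD, 31.2% ± 3.46 for RD and 22.8% ± 4.69 for YD. These counts over chosen members carry no test, and the part of the shorter YD lists in them was not tested.

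**Figure D4:**
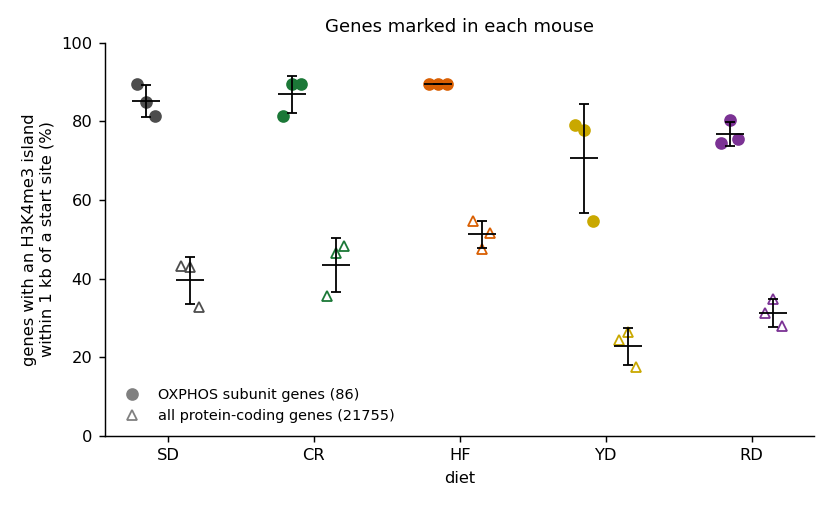
Percent of genes with an H3K4me3 island within 1 kb of a TSS (vertical) in each mouse of the 5 diets (horizontal), for the 86 members (filled circles) and for all 21755 protein-coding genes (open triangles), with bars for the mean and SD of 3 mice. Members lie between 54.7% in YD_3 and 89.5% in HF, and all coding genes between 17.5% and 54.6%.

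The losses were spread over the complexes. In YD_3 the 30 missing genes of the 77 left 23 marked in complex I, 6 in III, 4 in IV and 10 in V, with all 4 of complex II still marked. All 77 were present in every HF mouse, 70 in every CR mouse, 67 in every SD mouse, 54 in every RD mouse and 43 in every YD mouse. Sdha, the flavoprotein that oxidises succinate, held percentiles of 65.2, 67.2 and 91.2 in YD and 91.1, 88.3 and 70.1 in HF, so that the ranges overlapped.

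A change by presence was counted when 2 or 3 mice on one diet and 0 on the other were marked. Against SD, 1 of the 86 members was lost in YD (Ndufab1), beside 9.46% of all 21755 coding genes. In RD 1 member was lost (Atp5d, the delta subunit of the ATP synthase central stalk), beside 3.92% of all coding genes. The HF mice gained 1 member over YD, again Ndufab1, beside 18.5% of all. With only the islands at or above the median score of each list, 12 members were lost in YD against SD and 15 gained in HF over YD, while 2109 and 3786 coding genes were lost and gained in all. CR against SD, HF against SD and RD against YD gave 0 members gained or lost, beside 2.12%, 4.77% and 4.05% of all coding genes. Without SD_1 or SD_3 the YD count against SD was 0, beside 888 or 1736 coding genes lost. Without YD_1 or YD_2 it was 8 or 6, beside 2729 or 3057. Without SD_1, RD_1, RD_2 or RD_3 the RD count against SD was 2, 2, 4 or 5. Coding genes lost in these refits numbered 314, 1335, 1567 and 1165, with 145 gained without SD_1. Without YD_1 or YD_2 the HF count over YD was 8 or 7, beside 4759 or 5163 coding genes gained. The counts of 0 became 1 without SD_1 for CR and for HF against SD, beside 768 and 1569 coding genes gained. The count of RD against YD became 3 without YD_1 or YD_2, beside 1320 or 1516 gained. Without RD_2 it became 1, beside 261 lost.

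Atp5d had percentiles of 42.5, 51.3 and 46.0 in SD, 56.4, 50.3 and 89.8 in CR and 81.3, 65.8 and 84.8 in HF. Only YD_2 of the 6 YD and RD mice had an island there, at 13.2. Atp5d was thus marked in every SD, CR and HF mouse and in 1 of the 6 YD and RD mice. In the fit described next, its difference of RD minus SD was -46.6 points (SE 14.6, limma, adjusted p = 0.418).

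Differences in strength were tested with limma on the percentile, with an absent island as 0, over 11200 coding genes marked in at least 3 mice. This filter passed all 77 marked members and none of the 9 others. A difference is in percentile points, positive when the first diet named is higher, and a gene was called at an adjusted p under 0.05.

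Between HF and YD, 22 of 77 members (28.6%) were called higher in HF and 0 lower, beside 44% of all genes called higher. The share of members called was below that of all genes, as was their median difference, 30.5 points against 41.2. All 77 differences were above 0. Cox6a1, the liver form of a complex IV subunit, had percentiles of 94.9, 85.7 and 72.4 in HF, while in YD only YD_1 had an island, at 33.9. Its difference was 73.0 points (SE 15.3, adjusted p = 0.00927).

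Atp5d differed by 72.9 points (SE 14.6, adjusted p = 0.00873), the smallest adjusted p of any member. Cox5a, which encodes a matrix-side subunit of complex IV, had 90.6, 90.2 and 82.5 in HF and 21.5, 41.0 and no island in YD (66.9 points, SE 14.8, adjusted p = 0.0104). Ndufc2, a membrane arm subunit of complex I, kept an island in every YD mouse but at 41.9, 42.7 and 18.3, against 76.1, 89.4 and 81.8 in HF (48.1 points, SE 12.0, adjusted p = 0.0133). For each of these genes the HF and YD values did not overlap.

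The other members among the 10 with the smallest adjusted p were Atp5h (the d subunit of the peripheral stalk), Ndufs8 (an iron-sulfur subunit), Atp5g2, Uqcrfs1 (the Rieske iron-sulfur protein), Ndufa8 and Ndufs1 (the largest iron-sulfur subunit of complex I). Their differences ran from 23.8 points for Uqcrfs1 to 79.3 for Atp5g2, with adjusted p from 0.0122 to 0.02497. Uqcrfs1 had the smallest difference of the 10 and the smallest SE (6.78), with 92.9, 97.1 and 81.9 in HF and 70.5, 73.9 and 56.2 in YD. Among the succinate dehydrogenase genes Sdhc was called (47.2 points, adjusted p = 0.0251), with 82.5, 72.3 and 67.02 in HF and 25.8, 20.9 and 33.5 in YD. Differences at Sdha, Sdhb and Sdhd were 8.65, 1.76 and 4.78 points, with adjusted p of 0.335, 0.777 and 0.461. Of the c subunit genes, Atp5g2 was called, while Atp5g1 and Atp5g3 differed by 13.6 and 14.2 points (adjusted p = 0.288 and 0.317).

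**Figure D5:**
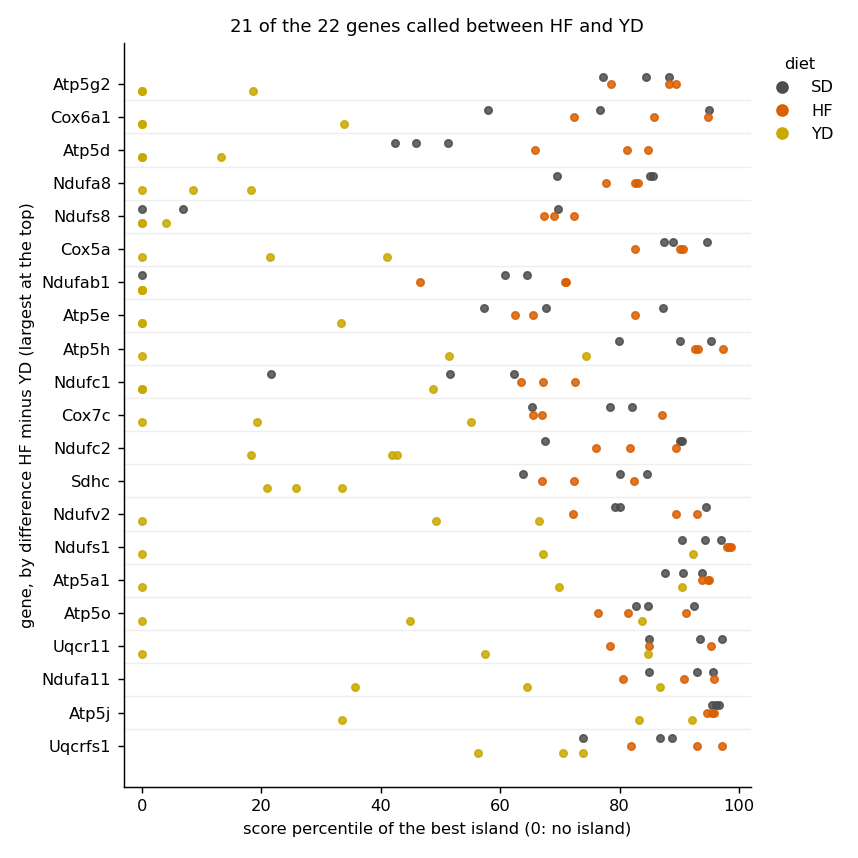
Score percentile of the best island (horizontal, 0 where a mouse had none) in each SD, HF and YD mouse for 21 of the 22 members called between HF and YD (vertical, ordered by the difference). At Atp5d the HF mice lie between 65.8 and 84.8 and the YD mice at or under 13.2, and at Ndufa11, Uqcr11 and Atp5o the highest YD mouse lies above the lowest HF mouse.

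The number of members called between HF and YD changed with the islands kept from each list and with single libraries. With the 7825 highest-scoring islands of every list, 0 of 77 members were called (9 at an unadjusted p under 0.05), as were 2 of 8839 genes in all, and the median difference of the members fell to 10.7 points. The members called numbered 4 without HF_1, 8 without HF_2, 11 without HF_3 and 13 without YD_3. In the same refits 610, 2532, 3498 and 2227 of all 11200 genes were called higher in HF. The library names have the form PATChIP in CR_1, CR_2, HF_2, HF_3 and RD_1 and ChIP in the other 10, a difference the labels do not explain. With only the ChIP form, which leaves HF_1 and all YD mice, the median difference of the members was 33.5 points, beside 50.4 over all genes. The lone HF library was assumed to vary like the other groups, so calls are not counted there.

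Against SD, the YD mice had 3 members called lower and 0 higher, beside 2.15% of all 11200 genes called lower. Cox5a had 87.4, 89.0 and 94.7 in SD and differed by -69.6 points in YD (SE 14.8, adjusted p = 0.0339). The other called members were Cox6a1 (-65.2 points, SE 15.3, adjusted p = 0.0397) and Ndufc2 (-48.4 points, SE 12.0, adjusted p = 0.0461). This comparison uses the same YD mice as HF against YD. The median difference over the members was -17.6 points, beside -23.9 over all genes.

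The 3 calls were not stable. The count was 0 without SD_1, SD_2, CR_2, HF_1, HF_2, HF_3 or YD_3. It was 1 without CR_3, 5 without CR_1, 6 without SD_3 or YD_1 and 9 without YD_2. Over all 11200 genes, 153 were called lower without YD_3, 186 without CR_3 and 561 without CR_1. Without SD_3, YD_1 or YD_2, 1156, 485 or 570 were called lower. The member count was also 0 with the same number of islands per list, as was the count of all 8839 genes.

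No member was called in the other 4 comparisons by limma. For RD against SD this was 0 of 77, beside 0% of all genes, with 6 members (all lower in RD) and 8.72% of all genes at an unadjusted p under 0.05. For CR against SD it was 0 of 77, beside 0% of all genes, with 1 member and 6.11% of all genes unadjusted. For HF against SD it was 0 of 77, beside 0.964% of all genes, with 1 member and 11.6% of all genes unadjusted. For RD against YD it was 0 of 77, beside 0.125% of all genes, with 14 members (13 of them higher in RD) and 13.75% of all genes unadjusted. Median differences in that order were -4.66, 4.34, 5.25 and 12.7 points over the members, and -9.43, 5.77, 12.8 and 9.19 points over all genes. An unadjusted 95% interval reached a median of 32.3 points to either side of a member's difference (6.45 to 58.0). A call needs an adjusted p under 0.05, so that changes of this size and larger at a single gene could go uncalled. Without RD_2, Ndufb10 was called lower in RD than in SD, beside 1 of all 11200 genes called lower. Without YD_1 or YD_2, 3 members were called higher in RD than in YD, beside 301 or 333 of all genes.

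Cox6a1 and Uqcrfs1 had the smallest adjusted p of RD against YD, the comparison of purple with yellow corn, and were chosen for that after their values were seen. At Cox6a1 the percentiles were 80.5, 56.9 and 89.6 in RD, where every mouse was above the 33.9 of YD_1, the only YD mouse with an island (64.3 points, SE 15.3, adjusted p = 0.0647). Uqcrfs1, with 95.1, 93.0 and 90.4 in RD, differed from YD by 25.9 points (SE 6.78, adjusted p = 0.0798). At both genes the RD and YD values did not overlap.

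Genes that build or regulate the complexes were read from lists of assembly factors, carriers and regulators. Between HF and YD, 9 of 20 complex IV assembly genes were called higher in HF, 5 of 14 for complex I, 2 of 4 for complex II, 2 of 5 tested for complex III and 2 of 3 for complex V, with 0 lower in each, beside the 44% of all genes called higher. Coa6, a copper-related assembly factor of complex IV, was marked in every SD, CR, HF and RD mouse and in 0 of 3 YD mice. Its difference was 79.4 points for HF minus YD (SE 16.4, adjusted p = 0.00904) and -81.6 points for YD minus SD (SE 16.4, adjusted p = 0.0326). Atpaf1, which assembles the catalytic part of the ATP synthase, was marked in every SD, CR and HF mouse, in 2 RD mice and in 0 YD mice (68.3 points for HF minus YD, SE 17.4, adjusted p = 0.0138). Of 7 tested genes in a list of carriers, differently named subunits and related proteins such as Coq9, only Coq9 was called (26.7 points, adjusted p = 0.0127).

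Of 12 regulators of respiratory genes, 7 were called higher in HF than in YD, beside the same 44%, namely Gabpa, Gabpb1, Nrf1, Ppargc1a, Ppargc1b, Pprc1 and Tfb1m. With the same number of islands per list only 1 of 8839 genes of any kind was called higher and 1 lower in this comparison. Nrf1, which encodes the factor whose motif was searched above, differed by 68.4 points (SE 20.3, adjusted p = 0.0202). Ppargc1a, the coactivator that drives mitochondrial biogenesis, differed by 52.9 points (SE 18.5, adjusted p = 0.0336), and by -78.1 points for YD minus SD (SE 18.5, adjusted p = 0.0406). The calls of Coa6 and Ppargc1a in YD against SD were not stable either, since 0 genes of any kind were called lower with the same number of islands per list (940 of 8839 at an unadjusted p under 0.05 in either direction) and 0 without SD_1, SD_2, CR_2, HF_1 or HF_3. The island of Atp5j covered the TSS of Gabpa in 13 mice. Both genes gave the same difference of 25.7 points (limma, adjusted p = 0.0463), so that they count as 1 island. No gene of these lists was called in RD against SD, CR against SD, HF against SD or RD against YD.

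Markers of other liver cells were counted in each mouse beside these differences. Of 10 sinusoidal endothelial genes, 10, 4 and 6 were marked in the HF mice and 1 in each YD mouse. The SD mice had 7, 1 and 4, the CR mice 3, 3 and 5 and the RD mice 2, 1 and 3. The 1 gene of each YD mouse was Gata4, which was marked in all 15 mice. Beside these counts, the mean marked share of all coding genes was 51.2% in HF and 22.8% in YD. Of 10 Kupffer cell genes, 6, 0 and 1 were marked in the HF mice and at most 1 in any other mouse, so that the HF mean of 2.33 became 0.5 without HF_1. Of 10 stellate cell genes, 4, 1 and 2 were marked in HF, and at most 2 in any other mouse, with an HF mean of 2.33 that became 1.5 without HF_1. In the fit, 0 of 7 tested sinusoidal endothelial genes and 0 of 1 tested stellate gene were called in any comparison, and no Kupffer gene passed the filter. Vsig4, Marco, Timd4 and Csf1r of the Kupffer list and Acta2, Col1a1, Ecm1 and Ngfr of the stellate list were marked in no mouse. Cholangiocyte genes were marked in a mean of 0.667 of 8 in YD to 2 in CR. Hepatocyte genes were marked in a mean of 15 of 15 in HF, 14 in SD, 13.3 in YD, 12.7 in CR and 12 in RD. The part of these cells in the differences between diets was not tested.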

How the data were processed

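H3K4me3 was profiled by PAT-ChIP-seq in sections of 15 fixed livers embedded in paraffin. Per the study's methods, the authors mapped reads of 50 bp with bwa (build mm10). Duplicates, unmapped reads, a MAPQ under 1 and chromosomes other than 1 to 19 and X were filtered out. The authors called islands in each library with SICER2 (window 200 bp, gap 400 bp, FDR under 0.05). The deposited score of each island is not scaled between libraries and served only for ranks within a list. Whether the lists hold islands from before or after the FDR filter could not be told from them. Lists covered 15.8 to 101 Mb, and reads were recovered from the score steps of islands of 1 window, with an assumed effective genome fraction of 0.74, to within 0.00046 of a whole number. No count per island was used, so errors are those between mice.

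Groups came from the sample labels. Members and gene lists were chosen with earlier results of these data known. TSSs were those of all GENCODE M21 transcripts (139486), and the best-scoring island within 1 kb of any TSS stood for a gene. Fits used limma 3.58.1 in R 4.3.3 (lmFit, contrasts, eBayes with trend) on all 15 libraries, with Benjamini-Hochberg adjustment over 11200 genes. The other steps used Python 3.11.15, pandas 2.3.3, numpy 2.4.6, scipy 1.17.1 and matplotlib 3.10.9. In data simulated for YD against SD with 200 of 11200 genes changed by 1 size at a time, limma recovered 6 of the 200 at 30 points, 55 at 60 and 150 at 90.

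Named members were those with no island, the 5 highest and 5 lowest by median percentile and the 5 widest by median width among the 35 marked in all mice, up to 10 called per comparison by adjusted p, those gained or lost by presence, and the isoform, c subunit and succinate dehydrogenase groups. Ndufb10, Alb, Atpaf1 and Nrf1 were described after their values were seen. RefSeq promoters were matched by symbol for 67 members and by an older symbol for 2. The other members had no match and are not in the promoter results. The values of 1 member are not reported here, though counts and medians include it. Alternatives changed the distance to the TSS, the transcripts, the islands kept, the measure, the gene filter, the replicate block and the libraries.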

Additional observations from a re-analysis of the deposited data

How the results depend on the processing

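Of 261 recomputed values that answer a comparison, 185 stayed within 1.5 times the reported count or 1 SD of the reported mean. The 3 members called in YD against SD became 0 with the 7825 highest-scoring islands per list, beside 0 of 8839 genes called lower. With log2 of the width and with the percentile among coding genes they also became 0, beside 669 and 0 of 11200 genes. They became 1 with islands at or above the median score, beside 54 of 9428 genes. With the libraries of the ChIP form of name they also became 1, beside 130 of 11200 genes. The 22 members called in HF against YD became 0 with the same number of islands per list, beside 1 of 8839 genes called higher. They became 10 with islands at or above the median score (1053 of 9428 genes) and 14 with the width (5003 of 11200). With the percentile among coding genes they became 13 (2912 of 11200) and with no gene filter 10 (1949 of 21755). In RD against YD 1 member was called with no gene filter, beside 116 of 21755 genes called higher. Some of these settings keep fewer islands or libraries, and the cause of the changes was not tested.

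Mean numbers of marked members with the same number of islands per list were 57.3 in YD and 54.7 in RD, against 75 in HF, 70.3 in CR and 69.7 in SD. With islands at or above the median score they were 68, 69.7, 75, 45.7 and 59.7 in SD, CR, HF, YD and RD. With a TSS inside the island they were 75.7 in HF and 60.3 in RD, and within 3 kb 77.7 in HF. Members without a neighbouring coding TSS (51 in all) gave 40.7, 41.7, 43, 33.3 and 36.7 in SD, CR, HF, YD and RD, a smaller set by construction.

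With a TSS inside the island, the members lost by presence were 4 in YD against SD and 2 in RD against SD. Beside these, 2014 and 924 of all 21755 coding genes were lost. Members gained were 2 in HF against SD, 4 in RD against YD and 7 in HF against YD, beside 1178, 802 and 4203 coding genes. With islands at or above the median score, 12 and 3 members were lost in YD and RD against SD, beside 2109 and 841 coding genes. Gained were 6 in RD against YD and 15 in HF against YD, beside 1013 and 3786 coding genes. The same number of islands per list gave 6 lost in RD against SD, 2 lost in RD against YD and 3 gained in HF against YD. Over all coding genes these numbers were 953, 325 and 1640.

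Leaving out 1 library at a time gave 0 to 9 called members in YD against SD and 4 to 24 in HF against YD. It gave 0 to 1 in RD against SD, 0 to 3 in RD against YD and 0 to 0 in CR and HF against SD. Over all 11200 genes, 0 to 1156 were called lower in YD against SD. In HF against YD 610 to 5414 genes were called higher, and in RD against YD 0 to 333. Means ranged over 57 to 67.5 in YD, 64.5 to 67 in RD, 71.5 to 75 in SD, 73.5 to 77 in CR and 77 to 77 in HF. Counts by presence ran from 0 to 8 in YD against SD, 1 to 5 in RD against SD and 0 to 1 in CR and in HF against SD. They ran from 0 to 3 in RD against YD and 1 to 8 in HF against YD. Over all coding genes, 888 to 3057 were lost in YD and 314 to 1567 in RD against SD. In HF over YD 2921 to 5163 were gained. Differences of the 13 named calls kept their sign in 325 of 325 refits and their call in 246. Leaving out a library of a diet outside the comparison, or adding the replicate block, cannot change a difference. The sign in those refits was therefore fixed in advance, and the 13 calls were chosen for their small adjusted p.

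With the replicate number as a block, 0 members were called in YD against SD, beside 2 of 11200 genes called lower. In HF against YD 18 members were called, beside 4568 genes called higher, and the other comparisons stayed at 0 members. Same-numbered mice did not deviate together (mean correlations of -0.00759, 0.00485 and -0.0111), and 2 of 15 libraries correlated best with their own number, so the numbers do not pair the mice. With 3 mice per diet, the difference within reach depends on the gene, since the 95% interval of a member reached 6.45 to 58.0 points to either side. Its median reach was 32.3 points, but this interval is unadjusted and a call needs an adjusted p under 0.05. Differences well above that reach could thus go uncalled, such as 57.2 points at Cox4i1 between HF and YD (limma, adjusted p = 0.0676). In the simulated data, 6 of 200 changes of 30 points were recovered and 55 of 200 changes of 60 points. A few differences under 30 points were called, such as 23.8 points at Uqcrfs1 between HF and YD.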

Other observations

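The 3 X-linked members, Cox7b, Ndufb11 and Ndufa1, were marked in 10, 12 and 13 mice and none of them in all 15, while 35 of the 74 marked autosomal members were marked in all 15. Over all protein-coding genes with an island in any mouse, 7 of 355 on the X chromosome were marked in all 15 mice (1.97%), against 16.2% on chromosomes 1 to 19. These genes were looked at after their values were seen, and no test was run.

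Across the 77 marked members, the mean percentile in HF, where all were marked, and the number of the 12 other mice with an island had a Spearman rho of 0.516. The genes share libraries and are not independent, so the value is a description. The members marked in all 15 mice had a median HF mean percentile of 87.5 (68.0 to 98.8), those marked in 13 or 14 mice 83.7 (63.4 to 99.1) and those marked in 10 to 12 mice 70.2 (58.7 to 94.3).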
